A study of Mus musculus with 4 samples.

Results

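Chromatin remodelling and histone modifying genes that act as tumour suppressors in liver and other cancers were read for DNA copy number in mouse liver tumours. The set was a list of 8 genes, Arid1a, Arid1b, Arid2, Pbrm1, Smarca4, Smarca2, Setd2 and Bap1, given by name, with earlier results of these data known when it was drawn up. A probe belonged to a gene when the gene name printed with it on the array, ignoring case, equalled the listed name. On that rule 7 of the 8 genes had probes, 99 of the 170305 probes on the array, out of 18700 gene names. Bap1 had none, and only its surroundings could be read.

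SWI/SNF complexes use ATP to slide or eject nucleosomes, and so open DNA to transcription factors and repair proteins. Each complex holds one ATPase, Smarca4 (BRG1) or Smarca2 (BRM), and comes in forms set apart by further subunits: Arid1a or Arid1b in BAF, and Arid2 with Pbrm1 in PBAF. Setd2 places the trimethyl mark on lysine 36 of histone H3 along transcribed genes, and Bap1 removes ubiquitin from histone H2A. Mutation or loss of ARID1A and ARID2 is recurrent in human hepatocellular carcinoma, and BAP1, PBRM1 and SETD2 are lost together with one arm of a chromosome in kidney cancer.

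Tumour DNA came from 4 individual mice labelled male, with the genotype FAH-/- Trp53-/-, and was labelled with Cy5. Fah is the final enzyme of tyrosine catabolism, Trp53 encodes p53, and NTBC is the drug that keeps mice without Fah alive by blocking an upstream step. The drinking water held 7.5 mg/L NTBC, and the mice were kept for 6 months on 2.5% of that dose. The Cy3 channel of every array held 1 pool of liver DNA from 3 littermates labelled male, with the genotype FAH+/+ Trp53+/+, whose own spread therefore enters no test. No array of normal against normal liver and no dye swap was analysed here, and the tumours differ from the pool in both genotype and tissue state, which cannot be told apart. The labels used here state no ages, and no Cre driver or cell type for either knockout. Each value is the log2 ratio of tumour to pool after centring each array on its autosomal median, and positions are in mm9. Thus 0 is the median ratio of that array. It is the level of the pool only where the median autosomal probe has the same copy number in tumour and pool. In that case a copy lost from all cells of a diploid tumour would read -1 and a copy gained 0.585. The share of tumour cells in each sample and their ploidy were not measured, so a change in few cells and a smaller change in all of them cannot be told apart.

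The 4 arrays lay on 1 slide in 1 scan. Probe noise, taken as the SD of differences between neighbouring probes divided by the square root of 2, was 0.31 to 0.39. In either colour 98.8% to 99.9% of spots passed the scanner's background test. Tumour 244 stood apart: 19.3% of genes had surroundings at 0.2 or more and 29.3% at -0.2 or less there, against at most 7.5% and 4.41% in the other tumours. In tumour 252 the median of X probes was 0.73 and that of Y probes -2.43 despite the male label, and whether sample or label was exchanged could not be settled. The Y median was -1.20 in tumour 244, -0.31 in 239 and -0.14 in 240. No listed gene with probes lies on X or Y. The 2 probes each of Trp53 and Fah averaged 0.07 and 0.04. The labels do not say which exons were removed, and these probes therefore do not check the genotype.

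Arid2, the DNA-binding subunit of PBAF, was the listed gene furthest from 0. Its 11 probes on chromosome 15 (96125293 to 96224605) averaged 0.35, 0.28, 0.43 and 0.39 in tumours 239, 240, 244 and 252. All 4 tumours lay above 0, tumour 244 highest and tumour 240 lowest, and each of the 11 probes had a mean above 0. The mean was 0.36 ± 0.06 (SD, n = 4; limma adjusted p = 0.00413 over 18702 genes). Arid1b, the alternative to Arid1a in BAF, was the only other gene that passed, at 0.17 ± 0.03 (limma adjusted p = 0.0444). Thus 2 of 7 genes lay above 0 and 0 of 7 below by limma at an adjusted p of 0.05, where 17.6% of all genes passed above and 15.1% below. Among the 3764 genes with 7 or more probes, as every listed gene with probes had, 9.78% passed above and 8.69% below. At an unadjusted p under 0.05 the counts of listed genes were 3 above and 0 below, with no share over all genes taken at that threshold. Under normexp background correction the calls over all genes turned from 53.9% above to 42.9% above, and Arid1b lost its call at 0.04 (adjusted p = 0.54). The same correction turned the sign of 5 uncalled gene means, to 0.01 for Arid1a, -0.10 for Smarca4, -0.06 for Smarca2, -0.17 for Pbrm1 and -0.02 for Setd2, none of which passed, and left Arid2 at 0.38. The median gene mean was 0.07 over the 7 genes and 0.02 over all genes.

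The surroundings of a gene, here the probes within 1 Mb on either side without its own, measure the region independently of the gene's probes. Around Arid2 they averaged 0.25, 0.17, 0.38 and 0.33 over 147 probes, in the same order of tumours as the gene itself. Their mean was 0.28 ± 0.09 (SD, n = 4; limma adjusted p = 0.0217), and that of all 6681 probes of chromosome 15 was 0.25 ± 0.09. Arid2 exceeded its surroundings by 0.10, 0.11, 0.05 and 0.06, a mean of 0.08 ± 0.03 that did not pass (limma adjusted p = 0.0826; 95% interval 0.00 to 0.15). It passed under normexp, at 0.14 (adjusted p = 0.00496), and with only genes of at least 3 probes tested, at the same 0.08 (adjusted p = 0.0344). Arid2 was the 1 of 7 genes whose surroundings lay above 0, against 5.42% of all genes (4.49% of those with 7 or more probes), and 0 of 7 lay below, against 3.74% (4.81%), by limma. At an unadjusted p under 0.05 there were 2 above and 2 below, with no share over all genes taken at that threshold. Of the calls at the adjusted threshold over all genes, 59.1% lay above 0. That share was 35% under normexp and 72.8% with each array centred on the mode of its 1 Mb bins. Without tumour 239 or without tumour 252 the value around Arid2 was 0.30 and 0.27 with an adjusted p of 0.15 and 0.07, and no gene of the array passed in its surroundings in either case.

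**Figure D1:**
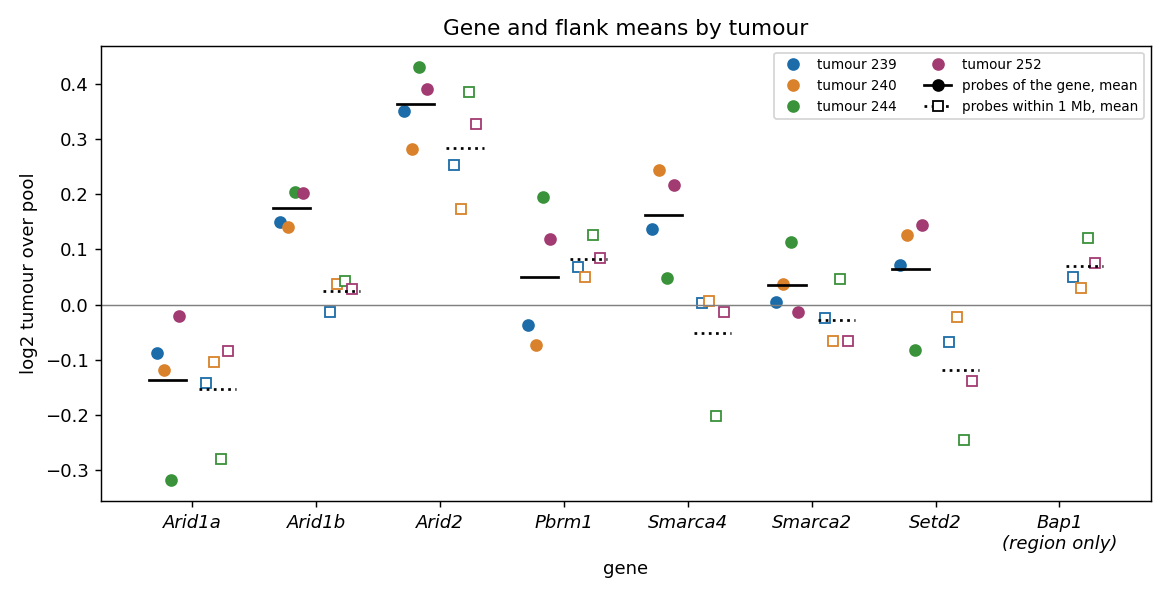
Mean log2 ratio of tumour over pool for the probes of each gene (filled circles, solid line the mean of 4 tumours) and for the probes within 1 Mb on either side (open squares, dotted line the mean), by tumour, with Bap1 shown by its region alone. Arid2 and its surroundings lie highest, and tumour 244 (green) lies lowest at Arid1a, Setd2 and Smarca4 and highest at Arid2 and Pbrm1.

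The Arid2 probes with the highest and the lowest mean are printed to show what the gene's value is built from. Sequences here are the array's oligonucleotides as the deposited files print them, 5′ to 3′ with no strand given, in lower case with any CG dinucleotide in capitals.
Arid2 highest, chr15:96139703-96139762: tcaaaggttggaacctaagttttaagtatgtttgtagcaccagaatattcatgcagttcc
Arid2 lowest, chr15:96125293-96125352: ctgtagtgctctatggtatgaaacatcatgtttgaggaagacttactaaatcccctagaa
The first averaged 0.71 over the tumours and the second 0.01, although both lie in the same gene. Spread of this kind between probes of a gene was larger than the spread of 1 probe between tumours. For Arid2 the SD between probe means was 0.23 and the mean SD between tumours per probe 0.15.

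Arid1a, the BAF subunit most often mutated in human tumours, lay on chromosome 4 (133238591 to 133307216). Its 9 probes averaged -0.09, -0.12, -0.32 and -0.02 in tumours 239, 240, 244 and 252. Tumour 244 was far lower than the others, and all 9 probes were lower there than their mean over the other tumours. The mean of -0.14 ± 0.13 (SD, n = 4) did not pass (limma adjusted p = 0.154; 95% interval -0.29 to 0.02). The surroundings gave -0.14, -0.10, -0.28 and -0.08, a mean of -0.15 ± 0.09 (limma adjusted p = 0.0887), and chromosome 4 as a whole gave -0.23 in tumour 244 and -0.04 to -0.01 in the other tumours. Arid1a differed from its surroundings by 0.02 ± 0.05, with a 95% interval of -0.07 to 0.10 (limma adjusted p = 0.729), but under normexp by 0.21, which passed (adjusted p = 0.00164). Its probes were bright, with a median pool signal of 1810 against 964 in the surroundings.

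The surroundings of Arid1a were not even. Of their 201 probes, 11 were at -1 or less in every tumour, against 0 to 5 around the other genes. Without probes past 1 in size in all 4 tumours, an alternative added after seeing the data, the surroundings of Arid1a averaged -0.06 (limma adjusted p = 0.39) instead of -0.15. With surroundings of 0.5 Mb they averaged -0.23 and passed (adjusted p = 0.027), and with 5 Mb -0.06 (adjusted p = 0.43). They also passed under normexp at -0.20 (adjusted p = 0.048), with robust limma at -0.14 (adjusted p = 0.045) and without tumour 244 at -0.11 (adjusted p = 0.031).

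Arid1b spans 36 probes on chromosome 17 (5003368 to 5346466), the most of the listed genes. Its means were 0.15, 0.14, 0.20 and 0.20 in tumours 239, 240, 244 and 252, a range narrower than for any other listed gene. The surroundings gave -0.01, 0.04, 0.04 and 0.03, a mean of 0.02 ± 0.03 (SD, n = 4). Arid1b lay above them in 4 of 4 tumours, by 0.15 ± 0.03 (limma adjusted p = 0.0116), and by 0.04 (adjusted p = 0.26) under normexp. Without tumour 244 or without tumour 252 the differences of 0.15 and 0.14 had an adjusted p of 0.056 and 0.052. The gene mean also lost its call without tumours 239, 240, 244 or 252 in turn, at 0.16 to 0.19.

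Probes within Arid1b ran from -0.71 to 0.92 in their mean over tumours, in a pattern that the tumours shared. A single probe broke it: in tumour 240 it read -1.52, and in tumours 239, 244 and 252 it read 0.39, 0.43 and 0.70. The probes on either side gave 0.36 and 0.33 in tumour 240, so no neighbour shared the low value. It was the 1 probe of the 99 that departed by 1 or more from the median of the other tumours, against 0.276% of 161417 autosomal probes. Its sequence is given with those of the highest and lowest probes of the gene, for follow-up by another assay.
Arid1b low in tumour 240, chr17:5324044-5324103: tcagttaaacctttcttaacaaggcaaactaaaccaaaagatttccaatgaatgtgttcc
Arid1b highest, chr17:5057996-5058055: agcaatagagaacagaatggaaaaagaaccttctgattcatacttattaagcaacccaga
Arid1b lowest, chr17:5107781-5107840: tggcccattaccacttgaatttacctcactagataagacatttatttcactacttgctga
The first holds no CG and has a GC content of 33.3%, where the 99 probes run from 31.7% to 40.0%.

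**Figure D2:**
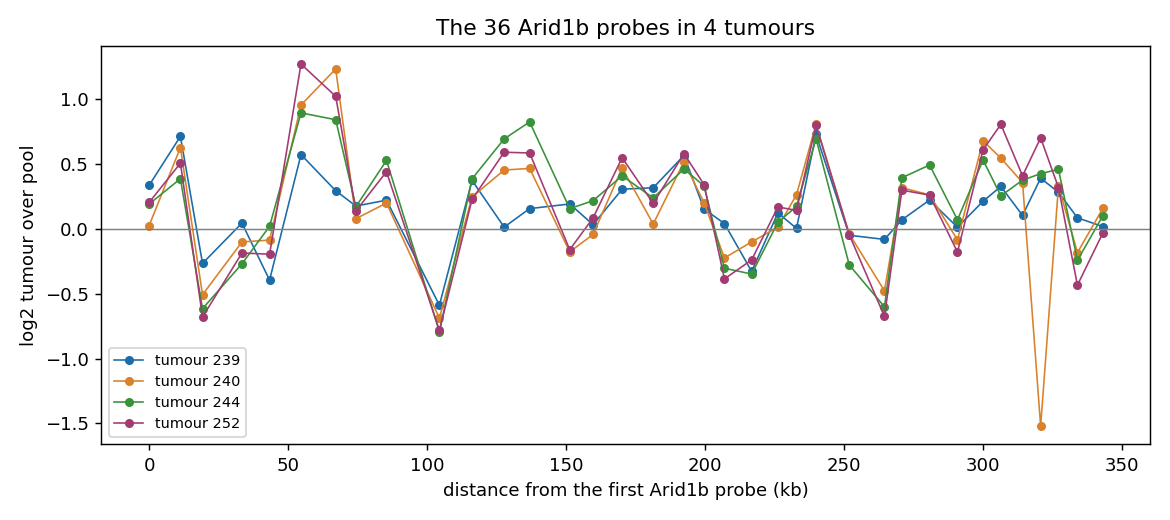
Log2 ratio of tumour over pool for each of the 36 Arid1b probes against the distance in kb from the first, one line per tumour. The 4 lines rise and fall together from -0.79 to 1.27, apart from the probe at -1.52 in tumour 240.

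Pbrm1, the polybromo subunit of PBAF that reads acetylated histones, lay on chromosome 14 (31835444 to 31926168). Its 11 probes averaged -0.04, -0.07, 0.19 and 0.12 in tumours 239, 240, 244 and 252. The tumours fell on both sides of 0, and the mean was 0.05 ± 0.13 (SD, n = 4; limma adjusted p = 0.589). All 11 probes were higher in tumour 244 than their mean over the other tumours, and all 11 were lower in tumour 240. The surroundings were steadier, at 0.07, 0.05, 0.13 and 0.09, a mean of 0.08 ± 0.03 (limma adjusted p = 0.145). The gene lay below them in tumours 239 and 240, by -0.10 and -0.12, and above them in 244 and 252, by 0.07 and 0.03. The mean difference of -0.03 ± 0.10 did not pass (limma adjusted p = 0.589), but under normexp it was -0.19 (adjusted p = 0.0045). The median pool signal of the Pbrm1 probes was 546, against 878 in the surroundings.

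Bap1 lies beside Pbrm1 on the same chromosome. In the gene order of RefSeq (assembly GRCm38.p6, used for order only) it falls between Phf7 and Dnah1, whose probes in mm9 leave a gap of 15 kb, 138 kb past the last Pbrm1 probe. One probe with no gene name lies in this gap, and it is shown as the reading nearest to Bap1, without being assigned to it.
Unnamed probe between Phf7 and Dnah1, chr14:32073192-32073251: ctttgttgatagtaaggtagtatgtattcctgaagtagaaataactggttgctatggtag
It read -0.44, -0.56, -0.47 and -0.26 in tumours 239, 240, 244 and 252, below 0 in all 4. The genes on either side lay above 0 in all 4 tumours, Phf7 at 0.27 to 0.52 on 2 probes and Dnah1, an axonemal dynein chain, at 0.07 to 0.19 on 6 probes. Over the 203 probes of the region within 1 Mb the values were 0.05, 0.03, 0.12 and 0.08, a mean of 0.07 ± 0.04 (SD, n = 4). A lone probe among values of the other sign gives no reading of Bap1 itself.

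Smarca4, the ATPase found in both BAF and PBAF, lay on chromosome 9 (21421402 to 21492139). Its 7 probes averaged 0.14, 0.24, 0.05 and 0.22 in tumours 239, 240, 244 and 252. All 4 tumours lay above 0, but the mean of 0.16 ± 0.09 (SD, n = 4) did not pass (limma adjusted p = 0.076); it did without tumour 244, at 0.20 (adjusted p = 0.043), and under normexp it turned to -0.10 (adjusted p = 0.20). The surroundings read 0.00, 0.01, -0.20 and -0.01, so tumour 244 was the lowest in the region, as in the gene, where 5 of 7 probes were lower there than their mean over the other tumours. Chromosome 9 as a whole was lowest in tumour 244 too, at -0.23, and gave -0.02, -0.002 and -0.09 in tumours 239, 240 and 252. Smarca4 exceeded its surroundings by 0.13, 0.24, 0.25 and 0.23, the largest such difference in the set, with a mean of 0.21 ± 0.05 (limma adjusted p = 0.00526). Under normexp that difference was -0.001 (adjusted p = 0.97). The Smarca4 probes were dim, with a median pool signal of 626 against 922 in the surroundings; the part of brightness in the difference was not tested.

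Smarca2, the other ATPase, lay on chromosome 19 (26683841 to 26849379) with 17 probes at 0.01, 0.04, 0.11 and -0.01 in tumours 239, 240, 244 and 252. No tumour departed far from 0. Neither the gene mean, 0.04 ± 0.06 (SD, n = 4; limma adjusted p = 0.654), nor the difference from the surroundings, 0.06 ± 0.03 (adjusted p = 0.144), passed. Its probes nonetheless held the lowest mean among all 99, and one of the highest, in positions next but one to each other.
Smarca2 lowest, chr19:26804669-26804728: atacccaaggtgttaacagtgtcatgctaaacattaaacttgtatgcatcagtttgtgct
Smarca2 highest, chr19:26790200-26790259: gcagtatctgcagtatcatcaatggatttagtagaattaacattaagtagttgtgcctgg
The first read -0.89, -1.01, -0.83 and -1.11 in tumours 239, 240, 244 and 252. The second read 0.90, 1.15, 0.54 and 0.56. Each kept its sign in all 4 tumours against the same pool, and neither value was shared by the probe between them, at 0.00, 0.10, 0.40 and -0.07.

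Setd2, the enzyme that trimethylates H3 lysine 36, lay on chromosome 9 (110440151 to 110517813). Its 8 probes averaged 0.07, 0.13, -0.08 and 0.14 in tumours 239, 240, 244 and 252, and the mean of 0.07 ± 0.10 (SD, n = 4) did not pass (limma adjusted p = 0.451). Tumour 244 was again the low one, with all 8 probes below their mean over the other tumours. Chromosome 9 as a whole gave -0.23 in tumour 244, and -0.02, -0.002 and -0.09 in tumours 239, 240 and 252. The surroundings lay below 0 in 4 of 4 tumours, at -0.07, -0.02, -0.24 and -0.14, a mean of -0.12 ± 0.10 (limma adjusted p = 0.162). Setd2 exceeded them by 0.14, 0.15, 0.16 and 0.28, a mean of 0.18 ± 0.07 (limma adjusted p = 0.0109). Only 3 of its 8 probes had a mean above 0, and the gene mean rests on a pair of them, at 0.55 and 0.35.
Setd2 highest, chr9:110511143-110511202: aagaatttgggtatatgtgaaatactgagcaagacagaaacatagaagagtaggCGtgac
Setd2 next highest, chr9:110472603-110472662: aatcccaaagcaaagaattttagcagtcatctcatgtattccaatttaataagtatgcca
With the median over probes in place of the mean, the difference from the surroundings fell to 0.08 (adjusted p = 0.21).

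**Figure D3:**
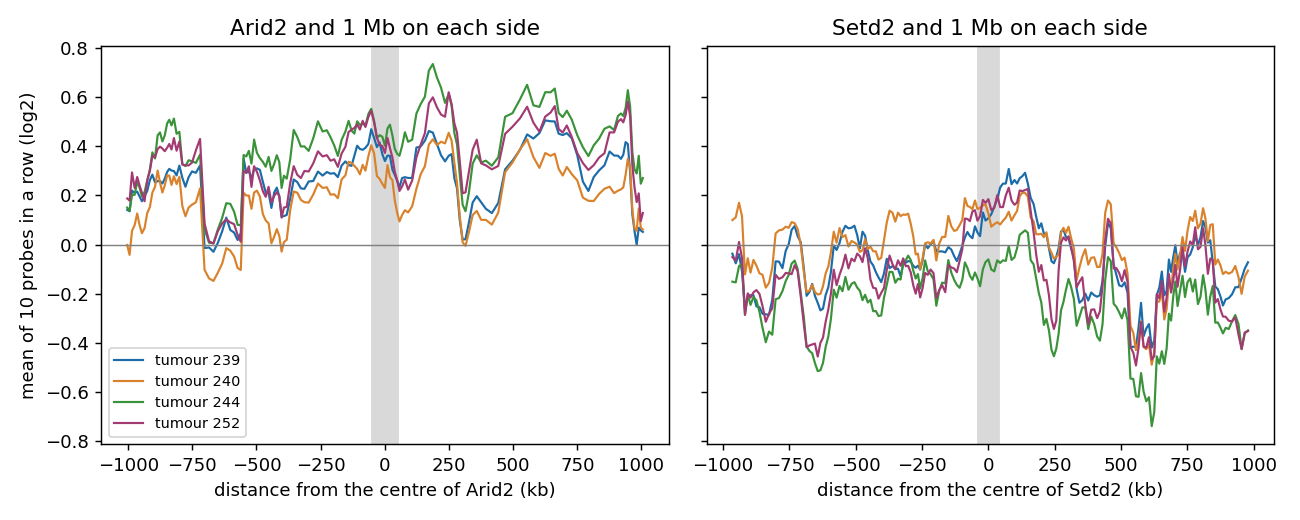
Moving mean of 10 probes in a row (log2 tumour over pool) against the distance in kb from the centre of Arid2 (left) and Setd2 (right), one line per tumour, with the gene shaded. The lines around Arid2 stay mostly above 0, and around Setd2 tumour 244 (green) lies below the others over most of the region, reaching -0.74.

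Against their surroundings, then, 3 of 7 genes passed above (Arid1b, Smarca4 and Setd2), where 25.3% of all genes and 18.4% of those with 7 or more probes did. None of the 7 passed below by limma, where 22.4% of all genes and 14.4% of those with 7 or more probes did. At an unadjusted p under 0.05 the counts were 4 above and 0 below, with no share over all genes taken at that threshold. With 25.3% of all genes passing, such a call is common on this array, and nothing particular to the listed genes can be read from 3 of 7. Under normexp the count above was also 3, but of other genes: Arid1a, Arid2 and Setd2 passed, Arid1b and Smarca4 did not, and Pbrm1 passed below. Over all genes the shares under normexp rose to 33.4% above and 27.7% below. The median difference was 0.08 over the 7 genes and 0.01 over all genes.

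**Figure D4:**
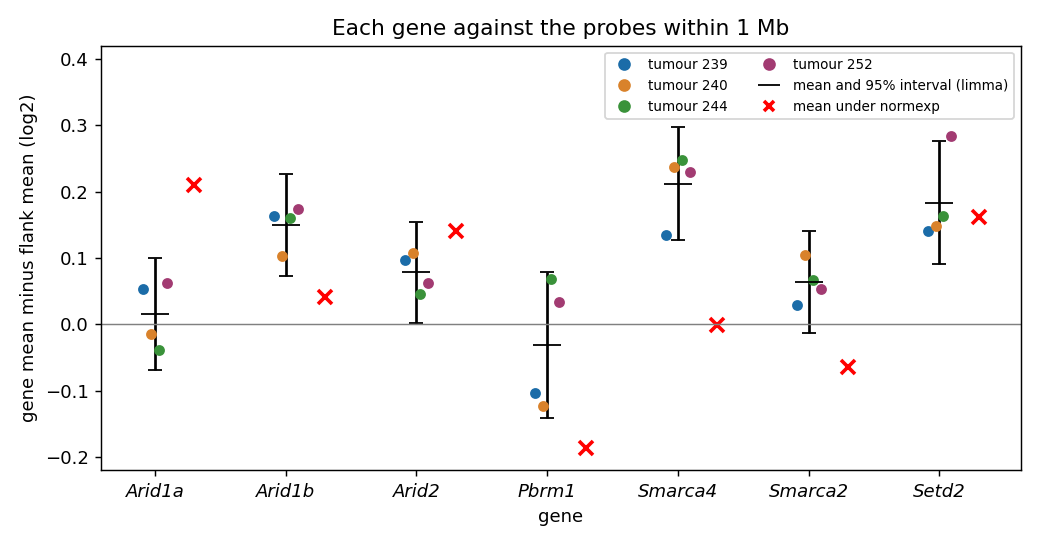
Gene mean minus the mean of probes within 1 Mb (log2), as points for 4 tumours, with the mean and its 95% interval from limma (black) and the mean under normexp background correction (red cross). Smarca4 and Arid1b lie above 0 in 4 of 4 tumours but fall to -0.001 and 0.04 under normexp, while Arid1a and Arid2 rise to 0.21 and 0.14.

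Read tumour by tumour, the surroundings of Arid2 were at 0.2 or more in tumours 239, 244 and 252, against 4.09%, 19.3% and 7.5% of all genes, and those of no listed gene in tumour 240, against 1.65%. Surroundings at -0.2 or less occurred in tumour 244 only, for Arid1a, Setd2 and Smarca4, where 29.3% of all genes had them, and in none of the other tumours (4.41%, 1.88% and 2.79% of all genes in 239, 240 and 252). In tumour 244 the mode of 1 Mb bins lay 0.10 above the median used for centring, and centring on it would lower every value of that tumour by as much. No tumour had any listed gene near -1, the level of a copy lost from all diploid cells: the lowest gene mean was that of Arid1a in tumour 244, -0.32, and the highest that of Arid2 in the same tumour, 0.43.

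Pairs of related genes were compared within tumours by an exact permutation test over sign flips, two-sided, whose smallest possible p with 4 tumours is 0.13. Arid1a lay below its paralogue Arid1b in 4 of 4 tumours, by -0.24, -0.26, -0.52 and -0.22, a mean of -0.31 ± 0.14 (SD, n = 4; exact p = 0.13, adjusted 0.188 over 3 pairs). The surroundings differed the same way, by -0.18 ± 0.10, but under normexp, an alternative added after seeing the data, the genes differed by -0.03 ± 0.15, with Arid1a higher in 3 of 4 tumours. Smarca4 lay above Smarca2 in 3 of 4 tumours, with a mean of 0.13 ± 0.13 (exact p = 0.25), and the surroundings gave -0.02 ± 0.15 (exact p = 1) and normexp -0.04 ± 0.14 for the genes. Setd2 lay below Smarca4, which is on the same chromosome, in 4 of 4 tumours, by -0.10 ± 0.03 (exact p = 0.13), and above it in 4 of 4 under normexp, by 0.08 ± 0.04. The regions of Bap1 and Pbrm1 overlap and differed by -0.01 ± 0.01.

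Values of probes repeated from array to array. Each probe's ratio was first taken minus the mean of its gene in the same tumour. Over the 99 probes, which share slide, pool and labelling, these differences correlated between any 2 tumours with r between 0.62 and 0.87. Split by the pool's signal into 3 groups of 33, the dimmest averaged 0.27, the middle 0.13 and the brightest -0.05, while all autosomal probes of the same signal averaged 0.17, 0.01 and -0.16. The pool's signal is the denominator of the ratio, so it and the ratio are not independent. Probe effects shared by the arrays are no part of the spread between tumours that limma uses.

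**Figure D5:**
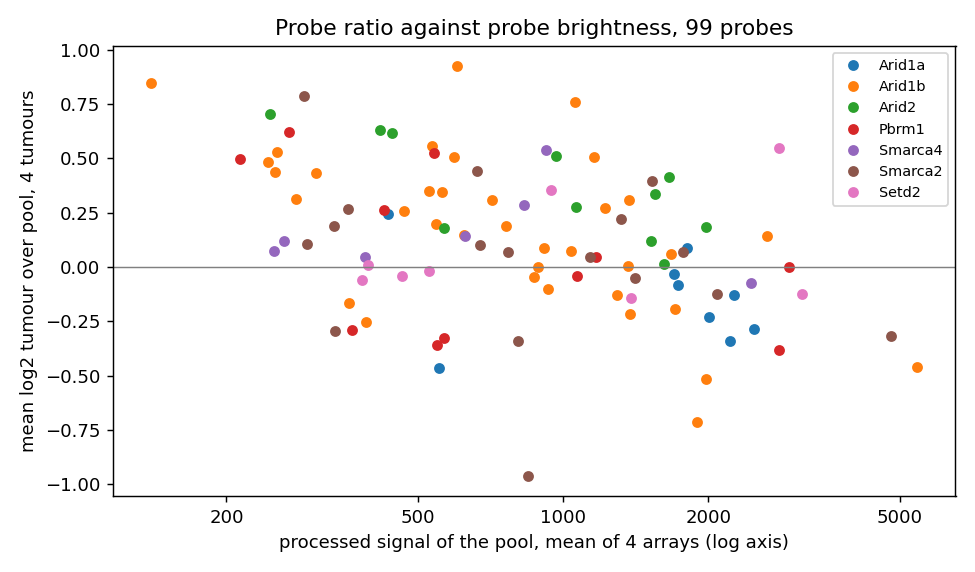
Mean log2 ratio of tumour over pool (4 tumours) of each of the 99 probes against its processed signal in the pool channel (log axis), coloured by gene. The Arid1a probes lie mostly on the bright side. Taken over the genes together, though not within every gene, the dim probes lie mostly above 0, 26 of the 33 dimmest.

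By likeness of the 4 tumour values, the nearest genes on other chromosomes with at least 5 probes were found for each listed gene among 5080 to 5259 genes. For Arid2 they were Sec14l1 on chromosome 11, at 0.31, 0.27, 0.39 and 0.42 in tumours 239, 240, 244 and 252, and Mllt1 on chromosome 17 at 0.42, 0.24, 0.44 and 0.43. The root mean square differences over 4 tumours were 0.03 and 0.05, the largest among the listed genes. For Arid1a they were Mak and FAM19A1, for Arid1b Mbnl2 and Vti1a, for Smarca4 Plekha1 and Map6, for Smarca2 Cacnb4 and Atrn, for Pbrm1 Cdc73 and Ccdc146, and for Setd2 Csmd2 and an unnamed transcript, with differences of 0.01 to 0.03.

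The genes next to each listed gene, with at least 3 probes, were read beside it, with no test of gene against neighbour. Setd2 lay between Kif9, a kinesin, at 0.07 ± 0.14 and Nbeal2 at 0.06 ± 0.21 (SD, n = 4), both near its own 0.07, and Kif9 exceeded its surroundings by 0.18 (limma adjusted p = 0.0102), as Setd2 did. Arid2 lay between a transcript of 7 probes at 0.29 ± 0.08 and Scaf11, a splicing factor, at 0.05 ± 0.11 (SD, n = 4), and Scaf11 differed from its surroundings by -0.25 (limma adjusted p = 0.00592). Smarca2 lay between Dmrt1, a sex-determination factor, at 0.11 ± 0.11 and 4931403E22Rik at -0.26 ± 0.11 (limma adjusted p = 0.0205). Nox3, an oxidase of the inner ear before Arid1b, lay at -0.14 ± 0.05 and differed from its surroundings by -0.17 (adjusted p = 0.0108). Rps6ka1, a ribosomal S6 kinase after Arid1a, lay at -0.23 ± 0.11 (adjusted p = 0.0297), and Zdhhc18 before it at 0.12 ± 0.10.

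Of 71 further genes in 4 lists, 69 had probes: 23 of 24 other BAF and PBAF subunits, 10 of 11 partners of Bap1, all 14 genes of H3 lysine 36 methylation and all 22 other remodellers and histone modifiers. By limma, 9 of the 69 lay above 0 and 8 below, against 17.6% and 15.1% of all genes. Against their surroundings 11 lay above and 16 below, against 25.3% and 22.4%. The other BAF and PBAF subunits gave 5 above and 2 below 0, the partners of Bap1 1 and 1, the lysine 36 genes 0 and 3 and the remaining list 3 and 2. The median gene mean over the 69 was -0.02, against 0.02 over all genes.

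The surroundings passed above 0 for 4 of the 69 and below for 3, close to the 5.42% and 3.74% of all genes. Of those 4, Smarcd1 (a BAF subunit), Kmt2d (a histone H3 lysine 4 methyltransferase) and Ep300 (a histone acetyltransferase) lie on chromosome 15 with Arid2, with surroundings at 0.33 ± 0.09, 0.30 ± 0.08 and 0.27 ± 0.08 (SD, n = 4; limma adjusted p = 0.0217 each). The fourth, Ss18l1 of the neuronal BAF complex, lies on chromosome 2 at 0.21 ± 0.05. The 3 below were Dpf3, a BAF subunit, and Asxl2, the scaffold that activates Bap1, both on chromosome 12 at -0.28 ± 0.11 and -0.24 ± 0.12, and Kdm4c, a lysine demethylase on chromosome 4 with Arid1a, at -0.28 ± 0.09 (limma adjusted p of 0.0252, 0.0499 and 0.0217). Ep300 and Kdm4c were chosen after their values were seen.

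On their own probes Dpf3 averaged -0.33 ± 0.12 over 18 probes and Asxl2 -0.37 ± 0.11 over 8 (SD, n = 4; limma adjusted p = 0.00855 and 0.00573). Eed, a subunit of Polycomb repressive complex 2, fell furthest among genes with more than 1 probe, at -0.60 ± 0.07 on 4 probes (limma adjusted p = 0.000836), with surroundings at -0.12 ± 0.12. Bcl11a, a zinc-finger BAF subunit, lay at 0.32 ± 0.06 on 8 probes with surroundings at -0.05 ± 0.04, a difference of 0.37 (limma adjusted p = 0.00106). Ube2o, a ubiquitin ligase that acts on Bap1, lay at 0.30 ± 0.06 on 4 probes. The 6 listed genes on X, Hcfc1, Ogt, Kdm6a, Kdm5c, Atrx and Smarca1, read 0.63 to 1.02 in tumour 252, whose X and Y probes go against its label, and -0.46 to 0.14 in the other tumours. None of these 6 passed against 0 by limma.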

How the data were processed

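The 4 tumours, each on 1 Agilent mouse CGH array against 1 liver pool, formed 1 group. Per the submitters' processing notes, the software was Agilent Feature Extraction 12.0.0; per the file headers, it was 12.0.1.1 and the build mm9. Per the file headers, both colours' processed intensity had its background subtracted and its dyes normalised. The deposited log10 ratio per spot in the authors' value table served as an alternative.

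Control spots and 95 to 120 outlier-flagged spots per array were dropped, spots of a probe averaged, and log2 of Cy5 over Cy3 intensity centred on the median of 161460 autosomal probes, with no loess or quantile step. Gene means, surroundings (1 Mb, at least 5 probes) and their difference were tested over all genes with limma 3.58.1 (R 4.3.3) as an intercept, with Benjamini-Hochberg adjustment and a threshold of 0.05. The code was tested on simulated data, where 18502 of 18702 genes had no shift. Against 0 it found 0 of 50 genes shifted by 0.2, 23 of 50 by 0.4 and 41 of 50 by 0.6. Far more genes passed on the arrays, so these shares do not carry over directly. A gene that did not pass is not shown to be unchanged. Other steps used pandas 2.3.3, numpy 2.4.6, scipy 1.17.1, matplotlib 3.10.9 and statsmodels 0.14.6 on Python 3.11.15. Partner genes were named when they passed against their surroundings, or against 0 and in their surroundings, the 15 largest by size of mean. The genes and lists were chosen with earlier results of these data known. Alternatives changed centring, background correction, trend correction, probe filters, flank size and the tumours used. Normexp used an offset of 50. No annotation of mm9 was used here, so exons and introns of probes are not given. The 8 promoter windows that RefSeq (GRCm38.p6) lists for 7 of the 8 genes hold no probe, so none is printed.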

Additional observations from a re-analysis of the deposited data

Results flagged for a closer look

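Of 59 values with 4 tumours each, 8 had 1 tumour apart from the other 3 by Dixon's criterion for 4 values. The criterion sets the gap against the range of the 4 values, so a small gap can meet it. Chance gives about 1 in 20, and many of the 59 share probes or tumours. Tumour 244 was the one apart in 5 of the 8: the surroundings of Smarca4 at -0.20, Arid1a minus Arid1b at -0.52 for the genes and -0.32 for the surroundings, Smarca4 minus Smarca2 at -0.25 for the surroundings, and Asxl2 minus its surroundings at -0.067. Setd2 minus its surroundings stood out in tumour 252 at 0.28, Smarca4 minus its surroundings in tumour 239 at 0.13, and Dpf3 minus its surroundings in tumour 240 at -0.039. For Dpf3 the gap was small, as the mean over 4 tumours was -0.056 ± 0.012 (SD, n = 4).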

How the results depend on the processing

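Of 350 values of the 7 genes under alternatives, 315 kept their direction and side of the threshold, or moved by less than the spread between tumours where neither was called; 14 lost and 9 gained a call, 11 uncalled values moved by more and 1 reversed. The reversal was Smarca4 minus its surroundings, at -0.0013 under normexp. For 744 values of named partner genes 661 held, and 5 reversed, all under normexp: Ss18l1 at -0.0089, Kmt2d at -0.16 and, against surroundings, Asxl2 at 0.034, Nsd3 at -0.12 and Kmt2d at -0.45.

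The count of 2 genes above 0 fell to 1 with centring on the mode of 1 Mb bins (added after seeing the data), normexp, lowess or only probes well above background, and ranged from 1 to 2 when a tumour was left out. Over all genes the share above 0 in the first of these settings to the last was 13.4%, 18.4%, 14.5% and 17.1%, against 17.6%. Arid2 passed in all 16 alternatives, at 0.34 to 0.39. Genes below their surroundings numbered 1 instead of 0 under normexp, where the share of all genes rose from 22.4% to 27.7%. Surroundings below 0 numbered 1 instead of 0 under normexp, robust limma and 0.5 Mb, and 0 to 1 without a tumour, as did surroundings above 0. Over all genes the share of surroundings below 0 was 5.22% under normexp, 7.13% with robust limma and 4.51% with 0.5 Mb, against 3.74%. Partner genes above 0 fell from 9 to 5 with bin-mode centring and ranged from 5 to 8 without a tumour. Over all genes that share fell from 17.6% to 13.4%, and ranged from 8.91% to 14.7%. Partner genes below 0 rose from 8 to 18 under normexp and ranged from 4 to 7 without a tumour. Over all genes that share rose from 15.1% to 24.6%, and ranged from 7.82% to 13.1%. Against surroundings, partner genes ranged from 5 to 10 above and from 7 to 21 below without a tumour. The shares of all genes ranged from 16.1% to 26.3% and from 14.1% to 25.5%.

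No paired analysis was possible because the tumours form 1 group against 1 pool. The number of arrays, 4, limits the precision. Slide, scan, dye and pool are shared by all arrays, so their part in values common to the tumours was not tested.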
